A study of Homo sapiens with 4 samples.

Results

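Contacts between the ribosomal RNA gene clusters (rDNA) and 10 genes that encode regulators of erythroid transcription were examined in K562 cells, an established human erythroleukemia line. The genes were GATA2, TAL1, LMO2, RUNX1, KLF1, ZFPM1, NFE2, GFI1B, MYB and BCL11A, 10 of 20033 protein-coding genes. For each gene the contact regions that met its span in hg38, widened by 250 kb on each side, were taken from the 4 libraries, and 50 kb on each side served as a second size. The method was 4C, in which cross-linked chromatin is cut and ligated, and the partners of 1 viewpoint, here in the rDNA intergenic spacer, are amplified by PCR and sequenced. Untreated K562 cells gave 2 libraries, and K562 cells kept for 108 h with 50 µM hemin, which induces erythroid differentiation, gave the other 2. The study names them biological replicates. A contact region is a stretch of the genome covered by reads, and its value is its number of reads. The groups differ by the hemin treatment alone as the labels give it, both come from a single cell line, and the files hold contacts and no expression, so the erythroid state of the cells was not checked here.

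The 10 proteins act at different steps of blood cell formation. GATA2 and RUNX1 are transcription factors of hematopoietic stem and progenitor cells, and TAL1 with its bridging partner LMO2 works in a complex that binds the enhancers of erythroid genes. KLF1 activates the adult beta-globin gene, NFE2 is the large subunit of a factor that binds globin enhancers, ZFPM1 (FOG-1) is a cofactor of GATA factors, and GFI1B is a repressor needed for red cells and platelets. MYB sustains progenitor growth, and BCL11A represses fetal globin genes. Nucleoli form around rDNA, which lies on the short arms of the acrocentric chromosomes. Of the 10 genes, RUNX1 is the one on such a chromosome.

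The libraries held 31721628 and 34000240 reads from untreated cells and 19548906 and 20577487 reads from hemin-treated cells. Between 50.5% and 53.2% of the reads lay within 10 kb of the 3 viewpoint copies that hg38 holds on chromosome 21, and these were set aside. No gene window reached a viewpoint copy. The windows of the 10 genes together held 113 and 106 regions before treatment and 142 and 133 after hemin. RUNX1, whose span is 1216.87 kb, took 50.0% to 60.9% of them.

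Most member regions with at least 100 reads lay at a site of the first restriction cut. The first cut was made with EcoRI, whose site is GAATTC, and the second with FaeI, whose site is CATG. An EcoRI site lay in or within 100 bases of 87.0% and 87.0% of the untreated member regions with at least 100 reads. For the hemin member regions it was 94.9% and 97.4%, against 89.8% to 92.6% of all such regions in the libraries. Among member regions of any read count it was 52.2% and 50.9% in untreated and 58.5% and 59.4% in hemin libraries. The sequences below, from the deposited regions, are on the plus strand of hg38 with the EcoRI site in capitals. They are the regions that held the most reads near KLF1 and BCL11A before treatment, near MYB after it, and near GFI1B and NFE2 in each state, together with the leading RUNX1 region of untreated cells and the strongest regions that both states shared near TAL1 and RUNX1.
KLF1, untreated, chr19:12889314-12889392: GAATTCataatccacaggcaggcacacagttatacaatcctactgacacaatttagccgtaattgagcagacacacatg
MYB, hemin, chr6:135193417-135193495: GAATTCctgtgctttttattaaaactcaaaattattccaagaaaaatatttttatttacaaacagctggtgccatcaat
GFI1B, untreated, chr9:133028048-133028115: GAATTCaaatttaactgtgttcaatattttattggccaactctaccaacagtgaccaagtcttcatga
GFI1B, hemin, chr9:132982579-132982638: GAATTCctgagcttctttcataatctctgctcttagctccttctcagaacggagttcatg
BCL11A, untreated, chr2:60519741-60519819: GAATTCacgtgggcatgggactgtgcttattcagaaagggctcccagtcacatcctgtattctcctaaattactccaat
NFE2, untreated, chr12:54473075-54473229: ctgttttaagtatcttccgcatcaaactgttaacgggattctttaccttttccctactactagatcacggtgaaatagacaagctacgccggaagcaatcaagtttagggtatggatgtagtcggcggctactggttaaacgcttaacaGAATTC
NFE2, hemin, chr12:54141861-54141939: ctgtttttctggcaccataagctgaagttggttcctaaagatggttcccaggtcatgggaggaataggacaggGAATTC
RUNX1, untreated, chr21:35810752-35810820: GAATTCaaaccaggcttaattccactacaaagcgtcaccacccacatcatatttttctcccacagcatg
TAL1, both states, chr1:46997188-46997261: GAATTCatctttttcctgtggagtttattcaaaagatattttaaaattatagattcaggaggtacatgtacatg
RUNX1, both states, chr21:35606566-35606644: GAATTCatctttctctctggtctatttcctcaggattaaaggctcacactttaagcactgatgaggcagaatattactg

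In each printed sequence the EcoRI site stands at the first or the last bases of the region, where the cut end was joined to the viewpoint. The printed regions were picked, and some strong untreated regions had no EcoRI site within 100 bases. Among these were chr6:135274070-135274146 near MYB (443 and 515 reads) and chr21:35613815-35613898 in the RUNX1 span (1264 and 1315 reads). Member regions of at least 100 reads in both libraries of a group matched hg38 exactly at 1 place, except for 1 region of untreated replicate 1 near TAL1, at chr1:47307719-47307797, which matched at 2.

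Near these genes, untreated and hemin-treated cells contacted rDNA at different places. The region with the most reads lay at the same place in both untreated libraries for 9 of the 9 genes with reads in every library, and in both hemin libraries for 8 of 9, the exception being RUNX1. Between an untreated and a hemin library it was the same for 0 of 9. Over 16228 protein-coding windows with reads in every library, the shares were 88.8% between the untreated replicates, 86.4% between the hemin replicates, and 4.56%, 4.33%, 4.48% and 4.41% for the pairs of an untreated and a hemin library. A leading place that holds within a state and differs between states was thus also what most windows showed.

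Measured on EcoRI fragments, the 10 windows held 1562 fragments. Both untreated libraries had reads on 55 of them and both hemin libraries on 63, and 4 fragments were among both sets, of which 3 were in the RUNX1 window and 1 in the TAL1 window. Those 4 made up 7.27% of the untreated and 6.35% of the hemin fragments. Over the genome, 3424 fragments were shared, 16.0% of 21418 untreated and 16.8% of 20335 hemin fragments. Between replicate 1 of each state the leading regions were 13.0 kb apart at the closest, for LMO2, and 340 kb apart at the farthest, for ZFPM1, with a median of 79.7 kb over the 9 genes. Hemin replicate 2 had another leading region for RUNX1, which these distances leave out.

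The replicates repeated each other closely inside each state. In the member windows 85.8% and 90.6% of the untreated regions and 79.6% and 82.7% of the hemin regions overlapped a region of the other replicate. The exact binomial 95% interval, which covers counting error alone, was 78.0% to 91.7% for untreated replicate 1. Among all regions outside the viewpoint copies the share was 70.1% to 74.3%. For regions of at least 10 reads the gap was narrower, at 83.7% to 90.2% in the member windows and 80.6% to 85.7% among all regions. Of the recurring member regions, 91.8% and 91.7% of the untreated and 93.8% and 93.6% of the hemin regions met no region in either library of the other state, against 80.1% to 82.2% of all recurring regions.

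The number of reads per window was compared between the states with the quasi-likelihood test of edgeR over 19185 windows of 250 kb, at a Benjamini-Hochberg adjusted p under 0.05. After hemin 39.4% of all windows tested were higher and 39.7% were lower. Of the 9 member windows tested, 2 were higher, LMO2 and GFI1B, and 5 were lower, TAL1, MYB, BCL11A, ZFPM1 and NFE2. KLF1 and RUNX1 did not pass the test, and GATA2 had too few reads to enter it. With 7 of 9 called, the members stood near the 79.1% called among all windows. Their median log2 fold change was -0.31, and that of all windows was -0.0037.

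Levels are given as RPM, reads per 1000000 reads outside the viewpoint copies, with edgeR’s TMM factors between libraries unless stated. The scaling of the libraries weighs on the smaller of these changes. With total reads in place of TMM factors the median of all windows moved to 0.39 on the log2 scale, 46.3% of all windows were higher and 32.6% lower, and the members were called higher 3 times and lower 3 times. Changes below are therefore best read relative to the median of all windows. Relative to it, TAL1 stood at -0.20 under either scaling, though its own log2 fold change turned from -0.21 to 0.19.

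**Figure D1:**
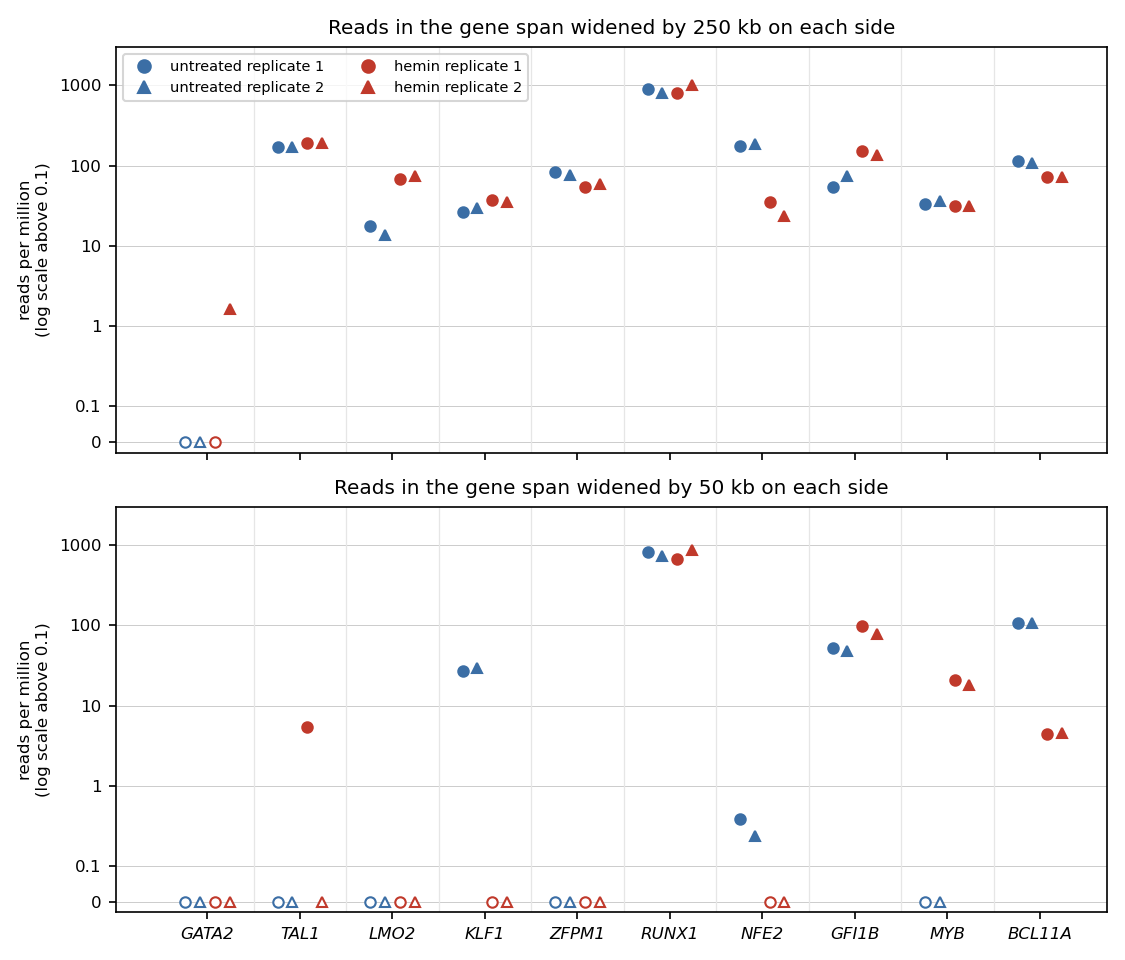
RPM, reads per 1000000 reads outside the viewpoint copies and without TMM factors, in the windows of the 10 genes, on a log scale above 0.1, for windows of 250 kb (top) and 50 kb (bottom). Circles are replicate 1 and triangles replicate 2, blue is untreated, red is hemin, and open symbols are libraries with 0 reads. LMO2 and GFI1B stood higher and NFE2 lower after hemin at 250 kb, and KLF1 and MYB had reads in 1 state alone at 50 kb. The values are scaled by total reads, so small shifts, such as that of TAL1, can point the other way from the TMM-scaled fold changes.

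**Figure D2:**
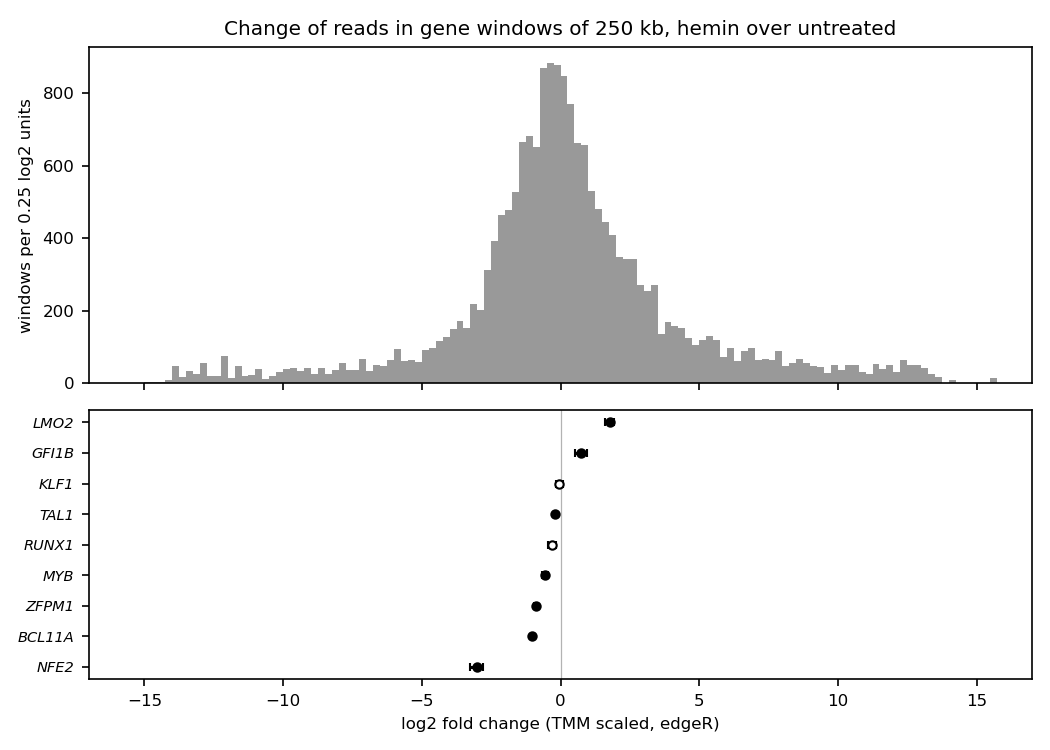
Log2 fold change of reads, hemin over untreated, scaled by TMM. The upper panel counts all 19185 windows tested, and the lower panel gives the 9 member windows tested with their standard errors, filled where the adjusted p was under 0.05. The member values run from -3.02 for NFE2 to 1.77 for LMO2, inside the broad range of all windows.

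Among the factors of stem and progenitor cells, GATA2 was nearly free of contacts. Its window of 513.775 kb held 93 EcoRI fragments, and 0 reads fell there in both untreated libraries and in hemin replicate 1, a count that allows up to 3 reads per library. Hemin replicate 2 had 16 reads in 2 regions, the larger of 15 reads at chr3:128421973-128422049, 57.4 kb from the 3′ end of the gene between genes. Windows with no region were 7.47% to 7.91% of all protein-coding windows in a library. The GATA2 window was the one window of the 10 with no recurring region in either state.

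The TAL1 window was dense in contacts, at up to 577 and 658 reads in its leading untreated region, but none lay in the gene. It held 26 and 24 regions in the untreated and 19 and 16 in the hemin libraries, or 19.0 and 17.5 and then 13.9 and 11.7 regions per 100 EcoRI fragments, where the median over all protein-coding windows was 3.36 to 3.88. The closest region of any library lay 41.7 kb from TAL1. Reads numbered 2640 and 2837 before and 1747 and 1873 after hemin. Levels were 193 ± 3.45 RPM (SD, n = 2) and 167 ± 1.64 (SD, n = 2), a log2 fold change of -0.21 ± 0.04 (SE; edgeR adjusted p = 0.018). The sign of this small change turned with the scaling, as given above, and with the regions kept. Without untreated replicate 1 or 2 it was -0.24 and -0.20 and was not called. Over repeat-filtered regions it was 1.27. These are limited to places shared by the replicates, which narrows the spread by construction, so no test is given for them. Over windows of 500 kb it was 0.44, with an adjusted p of 0.0021. Over windows of 100 kb it was -3.16, with an adjusted p of 0.0043.

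The 2 states used mostly different parts of the same neighbours of TAL1. In untreated cells the leading region lay 2.65 kb from CYP4Z1, a cytochrome P450 gene, and others lay in introns of CYP4Z1, CYP4A22, STIL and CMPK1. In STIL, which is needed for centriole duplication, the leading intron place held 229 and 288 reads before and 0 after hemin, while another, at chr1:47296130-47296209, held 44 and 54 reads after hemin. In an intron of CMPK1, the gene of a nucleoside monophosphate kinase, untreated cells had 535 and 579 reads at chr1:47368695-47368757, and hemin-treated cells had 327 and 360 reads at chr1:47375618-47375683. Each of the CMPK1 places had 0 reads in the other state. An intron of CYP4Z1 likewise held 148 and 148 reads at one place before and 333 and 387 reads at another after treatment. Elsewhere in CYP4Z1 introns the states met. Untreated libraries had 80 and 98 reads at chr1:47089346-47089423, and hemin libraries had 40 and 51 at chr1:47089418-47089494, which overlaps it.

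The place shared by both states that held the most reads in the TAL1 window was the region at chr1:46997188-46997261 printed above, 219 kb from TAL1 on its 3′ side and 26.4 kb from CYP4X1. It held 83 and 103 reads in untreated and 558 and 649 reads in hemin libraries. Without TMM factors these were 5.29 and 6.14 RPM before and 60.9 and 66.9 after, so both hemin values lay above both untreated values. This place became the leading region of the window after hemin.

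LMO2 had the largest rise of the 250 kb windows. Reads numbered 280 and 231 in untreated and 623 and 710 in hemin libraries, and the states did not overlap. The levels were 18.1 ± 3.04 and 61.6 ± 3.26 RPM (SD, n = 2 each), a log2 fold change of 1.77 ± 0.17 (SE; edgeR adjusted p = 0.0029). Its reads came from 1 EcoRI fragment in the untreated and 2 or 3 in the hemin libraries, all more than 100 kb from the gene. The leading regions of both states lay in FBXO3, the gene of an F-box protein of a ubiquitin ligase, in an intron at chr11:33757749-33757828 before (253 and 226 reads) and in its UTR, 13.0 kb away, after hemin (460 and 568 reads). The 50 kb window of LMO2 held 0 reads in all 4 libraries. Widened to 500 kb, the window showed the reverse change, -0.54 on the log2 scale with an adjusted p of 0.036, so the rise was not seen at that size.

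RUNX1 had the most contact regions of the 10 windows. Regions numbered 59 and 53 in untreated and 84 and 81 in hemin libraries, and 51, 44, 66 and 62 of them lay inside the annotated gene span. None of these came closer to the 5′ end of that span than 176 kb in the untreated and 118 kb in the hemin libraries. Both untreated libraries had reads on 27 of its 487 EcoRI fragments and both hemin libraries on 37. With 14030 and 13604 reads before and 7296 and 9771 after, reads per fragment stood above those of 93.7% to 95.6% of protein-coding windows. Among the 220 windows of chromosome 21, where the viewpoint copies also lie, RUNX1 stood at the percentiles 31.8 and 30.0 in the untreated and 38.6 and 53.6 in the hemin libraries.

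The RUNX1 window did not pass the test, at a log2 fold change of -0.31 ± 0.14 (SE; edgeR adjusted p = 0.13). Some large regions of the window were seen in 1 library. Hemin replicate 2 had 2166 reads at chr21:35260277-35260349, where the other 3 libraries had 0. That region was all repeat, with an EcoRI site within 100 bases but not inside it. Untreated replicate 1 had 1264 reads at chr21:35394558-35394591, also all repeat and also at 0 elsewhere. Regions of 1 library took 11.1% and 0.728% of the untreated and 6.67% and 22.9% of the hemin reads of the window. Over regions found in both replicates, an alternative chosen after the data were seen, 12472 and 13505 reads stood against 6809 and 7533, a log2 fold change of -0.41. Keeping regions on which replicates match narrows their spread by construction, so no test is given for it. Without hemin replicate 2 the window was called, at -0.49 with an adjusted p of 0.018, and without hemin replicate 1 it was not, at -0.16 with an adjusted p of 0.15. With total reads the value was 0.081, and over regions with an EcoRI site within 100 bases it was -0.067 with an adjusted p of 0.73. Over repeat-filtered regions, which are also limited to places shared by the replicates, it was -0.78, again without a test. Over windows of 500 kb it was 0.26 with an adjusted p of 0.022.

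Inside the annotated RUNX1 span, chr21:34787801-36004667, the leading places differed between the states in the same way as elsewhere. All hemin regions of at least 100 reads in that span started at chr21:35077625 or beyond. The span is the outer extent of the gene as annotated. The starts of its separate transcripts were not examined, so a place inside the span may lie outside shorter transcripts. Untreated libraries also had some before it, such as chr21:34795015-34795095 and chr21:34863431-34863531. Untreated cells had 1303 and 1409 reads at chr21:35810752-35810820 and 1264 and 1315 reads at chr21:35613815-35613898, and both places had 0 reads after hemin. Hemin-treated cells had 463 and 490 reads at chr21:35787946-35788053, with 0 before. The shared place at chr21:35606566-35606644 had 142 and 164 reads before and 436 and 480 after, which is 9.05 and 9.78 and then 47.6 and 49.4 RPM without TMM factors. It was the 1 strong region of the RUNX1 window, among 25 untreated and 21 hemin regions with at least 100 reads in both replicates, that both states held. Over the genome 13.6% of the strong untreated and 14.4% of the strong hemin regions met one of the other state, and in the member windows 2.33% and 2.86% did.

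**Figure D3:**
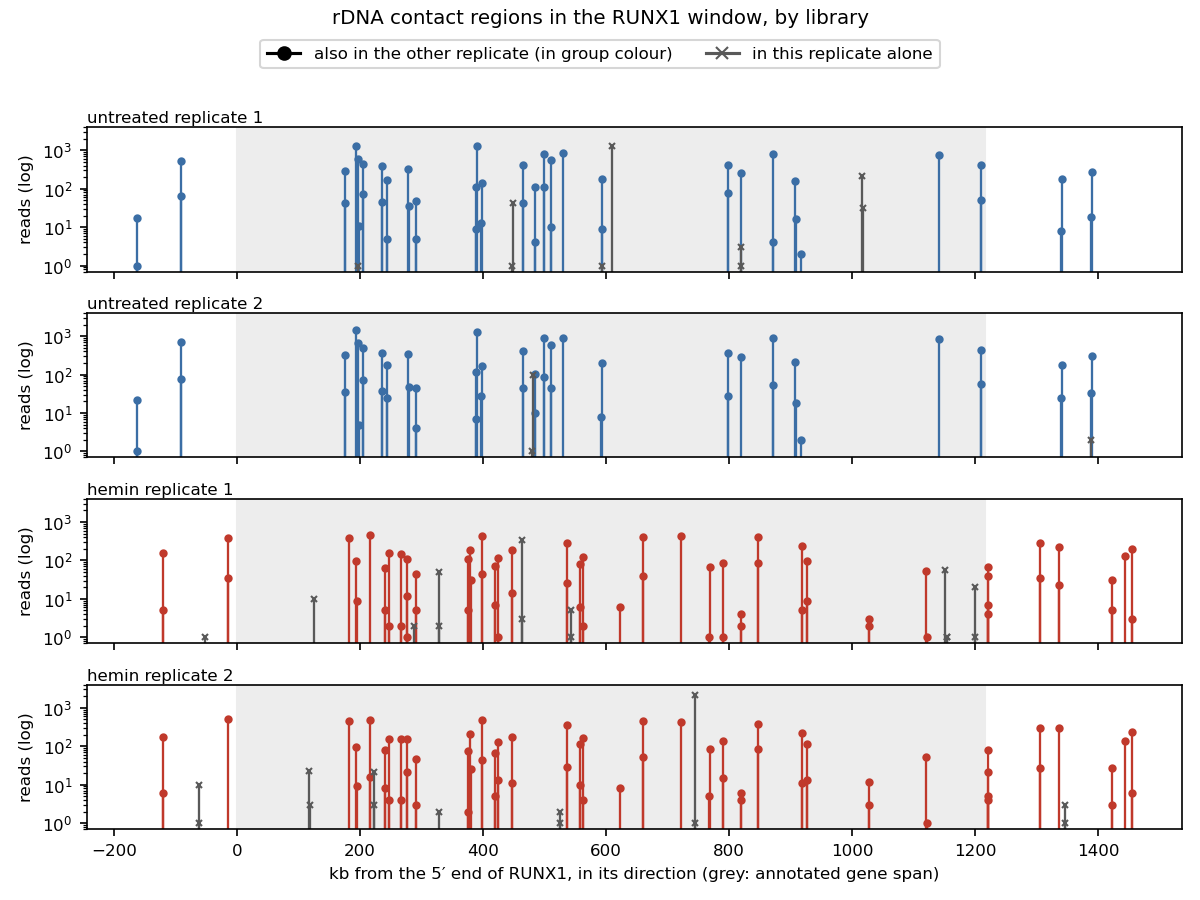
Contact regions in the RUNX1 window, with reads on a log scale against distance from the 5′ end of the gene in kb, for each library. Filled circles are regions that overlap a region of the other replicate, grey crosses are regions of that replicate alone, and the grey band is the annotated gene span. The replicates of a state share most places, while a cross of 1264 reads in untreated replicate 1 and one of 2166 reads in hemin replicate 2 stand alone.

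Among the erythroid activators and their cofactors, KLF1 exchanged a contact beside the gene for contacts farther away. In untreated cells nearly all reads of its window, 413 of 419 and 488 of 501, lay in 1 region at chr19:12889314-12889392, 2.11 kb upstream of KLF1 and 1.77 kb from GCDH, the glutaryl-CoA dehydrogenase gene. After hemin this region had 0 reads in both libraries. The leading region was then in an intron of DAND5, 81.9 kb away on the 5′ side, with 219 and 211 reads, where untreated cells had 0. In total the 250 kb window held 419 and 501 reads before and 337 and 341 after, with overlapping scaled levels and a log2 fold change of -0.05 ± 0.12 (SE; edgeR adjusted p = 0.74). Over repeat-filtered regions, which leave out the all-repeat DAND5 region, it was -1.62.

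At 50 kb the change of KLF1 was plain, with 419 and 493 reads before and 0 and 0 after. Against a floor of 3 reads per library this was at least 113-fold lower. The window passed the filter on low read counts through its untreated reads alone, so no test is given for it. Of all 12475 windows tested at 50 kb, 38.8% were lower and 43.9% higher, and the median log2 fold change was 0.24. The members tested at this size were KLF1, MYB, BCL11A, RUNX1 and GFI1B, of which 1 was higher and 2 were lower. The calls of KLF1 and MYB are in this count, though each passed that filter through 1 state alone. With total reads 46.7% of all windows were higher and 35.7% lower at this size, and 2 members were higher and 2 lower.

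NFE2 had the largest fall of the 250 kb windows. Its window held 2784 and 3096 reads in untreated and 320 and 229 in hemin libraries. The levels were 207 ± 8.73 and 25.5 ± 6.96 RPM (SD, n = 2 each), with a log2 fold change of -3.02 ± 0.24 (SE; edgeR adjusted p = 0.0018). In reads per fragment the window went from above 93.3% and 93.6% of all windows to above 44.5% and 34.5%. The fall came from places upstream of the gene. The region at chr12:54473075-54473229, in an intron of GTSF1, a germ-line gametocyte factor gene, had 1724 and 1903 reads before and 2 and 0 after. A region at chr12:54432485-54432608 in GPR84-AS1 had 592 and 679 reads before and 1 and 0 after, and one at chr12:54353061-54353128, 1.22 kb from COPZ1, a coatomer subunit gene, had 391 and 441 before and 0 after. After hemin the leading region lay on the other side of NFE2, 150 kb from its 3′ end, in an intron of SMUG1, a uracil-DNA glycosylase gene, with 191 and 134 reads.

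The nearest region to NFE2 was 39.3 kb away and held few reads, 6 and 4 in the 50 kb window before and 0 after hemin.

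ZFPM1 moved from its upstream to its downstream side. Reads fell from 1290 and 1276 to 501 and 563, or from 90.7 ± 3.69 to 49.2 ± 2.12 RPM (SD, n = 2 each), a log2 fold change of -0.88 ± 0.07 (SE; edgeR adjusted p = 0.0018). In untreated cells 726 and 731 reads lay at chr16:88367708-88367799, 85.5 kb upstream, and 416 and 398 at chr16:88205583-88205684. In hemin-treated cells 395 and 468 reads lay in an intron of CTU2, a tRNA thiolation gene, at chr16:88708093-88708184, 171 kb downstream, and 100 and 88 in an intron of ZC3H18. All of these places had 0 reads in the other state, and all 4 libraries had 0 reads within 50 kb of ZFPM1.

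GFI1B gained a contact inside the gene. In hemin libraries 813 and 754 reads lay at chr9:132982579-132982638, in an intron of GFI1B, and both untreated libraries had 0 there. Untreated libraries had 822 and 794 reads at chr9:133028048-133028115 instead, 36.4 kb beyond its 3′ end and 2.56 kb from GTF3C5, a subunit gene of the RNA polymerase III factor TFIIIC, and hemin libraries had 0 there. In introns of AK8, an adenylate kinase gene upstream, hemin libraries had 305 and 371 reads at one place and 166 and 180 at another, each with 0 before.

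For the whole GFI1B window the reads were 855 and 1256 before and 1375 and 1305 after, or 74.3 ± 17.6 and 124 ± 9.47 RPM (SD, n = 2 each), a log2 fold change of 0.74 ± 0.21 (SE; edgeR adjusted p = 0.041). Untreated replicate 2 held 434 reads at chr9:133195181-133195257 that no other library had, which is most of the 34.6% of its reads in regions of that library alone. Over regions found in both replicates the log2 fold change was 1.09. The window was not called without hemin replicate 1, at 0.66, nor without hemin replicate 2, at 0.82. In the 50 kb window, where 1 contact took the place of the other, 822 and 794 reads stood against 904 and 754, with a log2 fold change of 0.46 ± 0.14 (SE; edgeR adjusted p = 0.053) and a call without hemin replicate 2, at 0.59. Relative to the median of all windows at this size it was 0.22.

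MYB also gained a contact inside the gene. In hemin libraries 191 and 168 reads lay in an intron of MYB at chr6:135193417-135193495, where untreated libraries had 0. The 50 kb window held 0 and 0 reads before and 193 and 176 after, at least 82.5-fold higher. This window passed the filter on low read counts through its hemin reads alone, so no test is given for it. Untreated libraries had their leading region 54.9 kb beyond the 3′ end, at chr6:135274070-135274146, with 443 and 515 reads and 0 after hemin. That region was wholly repeat-masked and held no EcoRI site within 100 bases.

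Over 250 kb MYB fell from 525 and 603 to 286 and 300 reads, or from 39.8 ± 2.58 to 27.1 ± 0.153 RPM (SD, n = 2 each), a log2 fold change of -0.55 ± 0.11 (SE; edgeR adjusted p = 0.017). Over repeat-filtered regions, which leave out the leading untreated region, it was 2.24, and over windows of 500 kb it was 0.73 with an adjusted p of 0.011. The direction at this gene thus depended on which regions were counted. The window was not called without untreated replicate 2 (-0.49), hemin replicate 1 (-0.56) or hemin replicate 2 (-0.55), nor with total reads (-0.16, adjusted p = 0.24). Over windows of 100 kb it was called, at -1.22 with an adjusted p of 0.0041.

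BCL11A lost a strong contact inside the gene. In untreated libraries the region at chr2:60519741-60519819, in an intron, had 1174 and 1197 reads, which was 66.3% and 65.7% of the reads of its window, and it had 0 after hemin. A second untreated region in an exon of MIR4432HG, a noncoding RNA gene 11.0 kb beyond its 3′ end, had 413 and 481 reads and also 0 after hemin. Hemin libraries had their leading region 58.5 kb upstream at chr2:60612943-60613043, with 385 and 434 reads, and had 40 and 44 reads inside the gene at other places.

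The BCL11A window fell from 1770 and 1823 to 660 and 698 reads, or from 127 ± 1.55 to 62.8 ± 0.00856 RPM (SD, n = 2 each). The log2 fold change was -1.01 ± 0.04 (SE; edgeR adjusted p = 0.00057). Within 50 kb it was larger, with 1704 and 1789 reads before and 40 and 44 after, a log2 fold change of -4.95 ± 0.07 (SE; edgeR adjusted p = 0.001). The states did not overlap at either size.

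**Figure D4:**
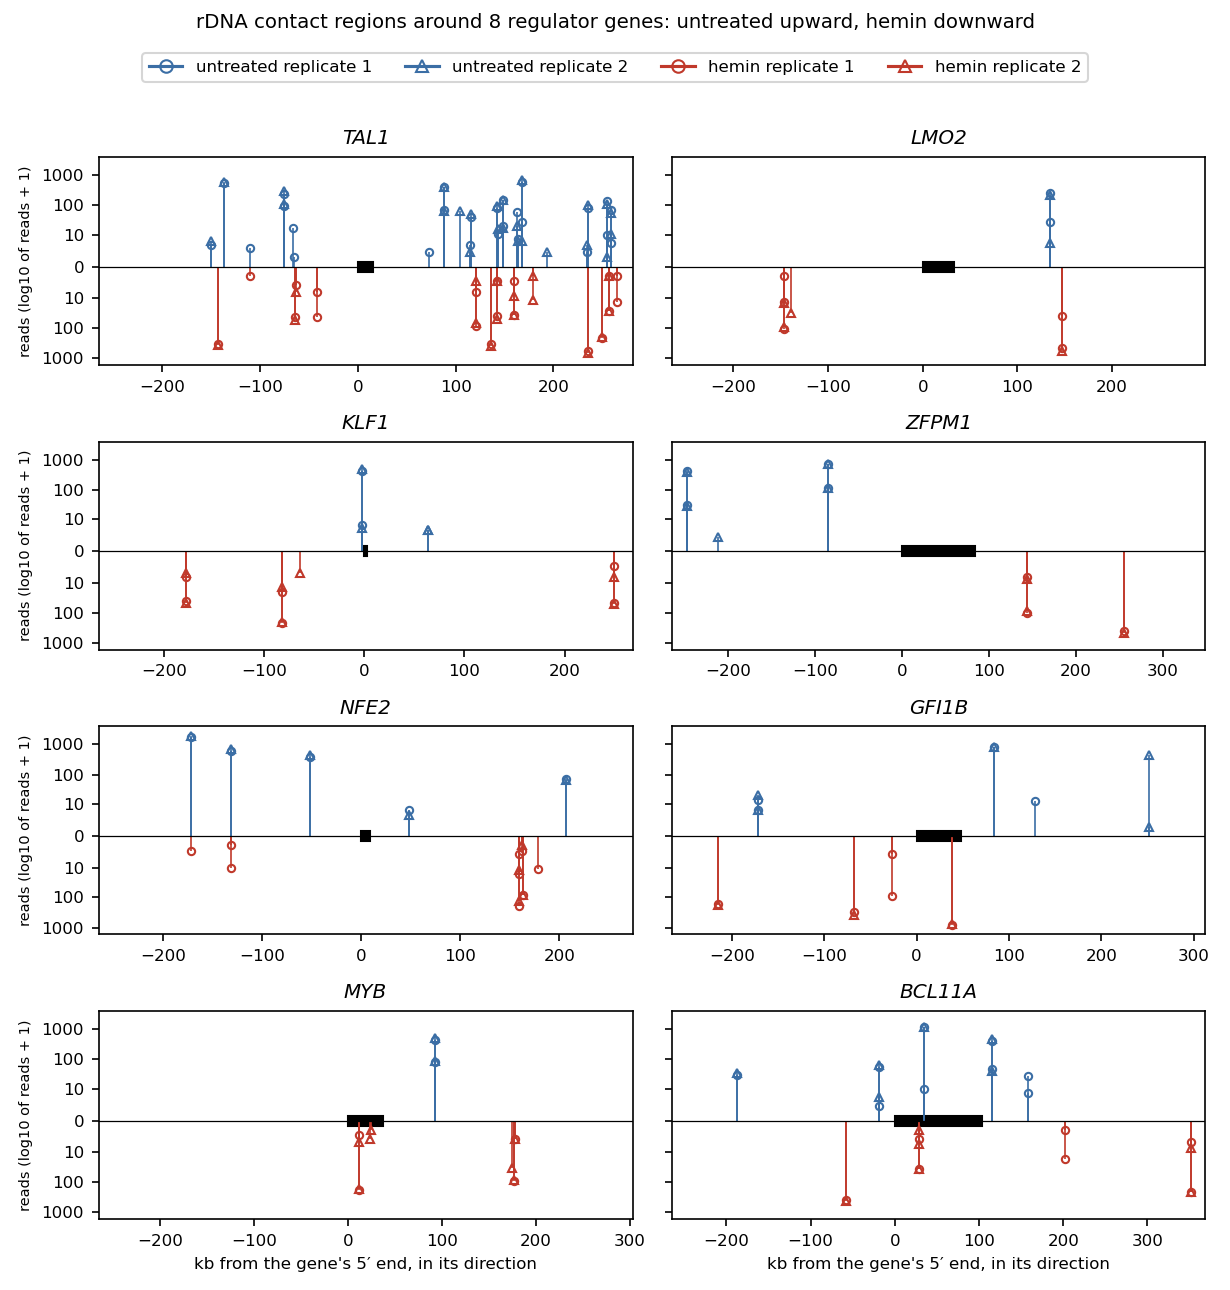
Contact regions around the 8 genes other than GATA2 and RUNX1, by distance from the 5′ end of the gene in kb, in the direction of the gene. Untreated reads point upward and hemin reads downward on a log10 scale of reads + 1, circles are replicate 1, triangles replicate 2, and the black bar is the gene. Strong places recur between replicates and seldom face each other across the axis, and strong contacts inside the gene appear for MYB and GFI1B in hemin libraries and for BCL11A in untreated ones.

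Strong contacts, with at least 100 reads in both replicates, thus lay inside the annotated span of BCL11A and RUNX1 in untreated cells. In hemin-treated cells they lay inside that of MYB, GFI1B and RUNX1. That is 2 and 3 of the 10 genes, against 13.8% and 13.9% of all protein-coding genes. Within 50 kb the counts were 4 of 10 in untreated and 3 of 10 in hemin libraries, against 32.4% and 32.7%. Within 250 kb it was 9 of 10 in each state, against 71.5% and 72.8%, with GATA2 left over each time. The median distance of a strong member region to the nearest strong region of the other state was 28.8 kb for untreated and 27.0 kb for hemin regions, beside 38.9 kb and 49.3 kb over the genome, and without RUNX1 it was 73.8 kb and 80.2 kb.

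A list of 26 other regulators of blood cell transcription was counted beside the members. All 26 windows of 250 kb were tested, and 9 were higher and 12 lower after hemin, beside 39.4% and 39.7% of all windows. Their median log2 fold change was -0.26. At 50 kb 19 were tested, of which 8 were higher and 7 lower beside 43.9% and 38.8% of all windows, with a median of 0.15 where that of the 5 members tested was -0.35. The LYL1 window overlaps that of KLF1, and ERG and BACH1 lie on chromosome 21 with RUNX1. The highest were CBFA2T3, a corepressor that joins TAL1 complexes, and FOXO3, a forkhead factor of red cell maturation. CBFA2T3 had 0 and 0 reads before and 436 and 468 after, at least 197-fold higher. FOXO3 had 8 and 4 before and 1088 and 1177 after, a log2 fold change of 7.91 ± 0.35 (SE). The lowest were MAFK, the small Maf partner of NFE2, and TCF3, the E protein partner of TAL1. MAFK went from 916 and 966 reads to 0 and 4, a log2 fold change of -8.42 ± 0.96 (SE). TCF3 went from 241 and 276 to 2 and 0, at -7.47 ± 1.07 (SE). The windows of CBFA2T3, FOXO3, MAFK and TCF3 passed the filter on low read counts through 1 state alone, so no test is given for them.

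With 2 libraries a group the tests measure the spread between these libraries, and since no molecular identifiers mark the PCR products, several reads may stem from 1 ligation. With regions rather than reads as the unit, a region counts 1 whatever its depth. On that count edgeR called 0 members and 0 of all windows. An unadjusted p under 0.05 was reached by 2 members, and this was not counted over all windows. Windows held a median of only 4 or 5 regions per library at 250 kb and 1 at 50 kb. With so few regions and 2 libraries a group, that count cannot decide what the calls on reads rest on.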

How the data were processed

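The deposited replicate files list contact regions, each with its raw read count. Per the labels and the study's methods, the authors trimmed adapters with cutadapt 3.5, kept reads that carried a 4C primer, aligned them to hg38 with BWA 0.7.17-r1188 and wrote covered regions with in-house scripts. Neither a duplicate filter nor a mapping quality limit is named, so reads of repeats may be placed at any copy. A deposited file per group gives a signal per region shared by the replicates, from which the authors had removed repeat reads, and was used for positions alone. Columns without a sample or group numbered 0.

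Genes came from GENCODE release 44, and reads were summed per gene window over regions more than 10 kb from the viewpoint copies. At least 99.95% of the deposited sequences of any library were identical to hg38 at their coordinates. Windows were fitted with edgeR 4.0.16 in R 4.3.3 (TMM factors, reads outside the viewpoint copies as library sizes, filterByExpr, treatment as the only term). DESeq2 1.42.0, the study's tool, served as an alternative, since it made more false calls on simulated counts. Counts simulated here were drawn from the edgeR fit, which favours edgeR, so they cannot rank the tools. SE is the log2 fold change divided by the square root of F. The other alternatives covered scaling, filters, replicates, regions, window sizes and thresholds. Repeat share comes from lower-case letters of the deposited sequences. Tables were made with Python 3.11.15, numpy 2.4.6 and pandas 2.3.3, and plots with matplotlib 3.10.9.

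The members, the list of other regulators and the sequences shown were chosen with earlier results of these data known. All 10 members are named. Of the list, the 2 highest and the 2 lowest log2 fold changes are named among windows called with a mean of at least 100 reads and groups that do not overlap. Genes that carry a leading region are named with it, and other regions were picked after their values were seen. Intervals are at 95%, and a count of 0 was bounded by 3 reads per library.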

Additional observations from a re-analysis of the deposited data

How the results depend on the processing

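In the 250 kb windows 2 members were higher and 5 lower after hemin. With scaling by total reads 3 were lower, beside 6256 of all 19185 windows. Over regions with an EcoRI site within 100 bases 3 were lower, beside 7186 of 18818. Over repeat-filtered regions 4 were higher and 5 lower, beside 8381 and 7859 of 17096 windows. Windows of 100 kb gave 1 higher and 6 lower of 8 tested, beside 6686 and 6084 of 15992. Windows of 500 kb gave 5 higher and 4 lower of 10, beside 8064 and 8211 of 19948. At an adjusted p under 0.01, 1 was higher and 3 were lower, beside 6031 and 6158 of 19185 windows. With 1 library left out at a time, the median log2 fold change of the members was -0.49 to -0.18. That of all windows was then -0.037 to 0.0029. In the 50 kb windows 1 member was higher and 2 were lower, and 2 were higher with DESeq2, scaling by total reads, DESeq2 size factors, a mean of at least 50 reads, regions of at least 10 reads, repeat-filtered regions, regions with an EcoRI site, or regions found in both replicates. The added call was GFI1B in each of these. Under these settings 4720 to 6140 of all windows were higher, where 9169 to 12475 were tested. Keeping regions found in both replicates narrows the spread between replicates by construction, and repeat-filtered regions are limited to such places too. The calls of these settings are no sign of stability. With 1 library left out at a time, the median of the members at 50 kb was -0.17 to 0.047, and that of all windows 0.034 to 0.50. Each region counted once gave 0 calls in either direction at both sizes, among the members and among all 19883 and 15759 windows. An unadjusted p under 0.05 was reached by 2 members, and this was not counted over all windows.

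Same-numbered replicates did not deviate together (correlation -0.02 over the 250 kb and -0.01 over the 50 kb windows). Whether same-numbered libraries were prepared together is not given by the labels, and these correlations cannot decide it. With the replicate block, edgeR called 1 member higher and 3 lower at 250 kb, beside 6256 and 6456 of all 19185 windows. At 50 kb it called 0 higher and 1 lower, beside 969 and 1146 of 12475. An unadjusted p under 0.05 was reached by 3 members there, and this was not counted over all windows.

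Of 167 log2 fold changes of single members under alternatives at 250 kb, 124 kept their direction and side of the threshold, 19 lost and 5 gained the call, and 19 changed sign. TAL1 turned to 0.19 with total reads, 1.27 over repeat-filtered regions, 0.027 over regions with an EcoRI site and 0.44 in windows of 500 kb. KLF1 turned to 0.35 with total reads, 0.018 over regions of at least 10 reads, 0.015 over regions found in both replicates, 0.95 with each region counted once, and 1.38 in windows of 500 kb, and leaving out 1 library gave -0.15 to 0.043. RUNX1 turned to 0.081 with total reads, 0.42 with each region counted once and 0.26 in windows of 500 kb. In its 50 kb window it turned to 0.0019 with total reads, 0.40 with each region counted once, and 0.00052 over regions with an EcoRI site. MYB turned to 2.24 over repeat-filtered regions, 1.27 counted once and 0.73 in windows of 500 kb. LMO2 turned to -0.54 in windows of 500 kb. NFE2 turned to 0.23 and GFI1B to -0.30 with each region counted once. BCL11A and ZFPM1 kept their sign under all alternatives run. The cause was not tested.

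The share of member regions that recur moved in hemin libraries from a mean of 81.1% to 83.7% when regions within 2.5 kb counted as the same, 85.4% for regions of at least 10 reads, and 77.5% without RUNX1. The share of recurring regions seen in no library of the other state moved from 91.7% (untreated) and 93.7% (hemin) to 79.8% and 83.0% within 2.5 kb, 94.6% and 94.5% for regions of at least 10 reads, 92.2% and 92.1% in windows of 50 kb, and 91.4% and 95.3% without RUNX1. Over all regions, 80.5% and 77.0% of the hemin regions recurred within 2.5 kb, and 85.2% and 80.6% of those with at least 10 reads. Among all recurring regions, 60.5% to 66.8% were seen in no library of the other state within 2.5 kb. For regions of at least 10 reads that share was 83.5% to 84.6%. The set without RUNX1 and the regions found in both replicates were chosen after the data were seen. The hemin libraries held fewer reads, so a weak contact there is the more easily missed.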
